A study of Mus musculus with 36 samples.

Results

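The cells described here were 395 cardiomyocytes from hearts of sham-operated mice, out of 794 sham cells and 3146 cells of the whole series with at least 1000 unique molecular identifiers (UMIs). A UMI is a random tag of 6 bases that marks each captured RNA molecule, so a count of UMIs is a count of molecules read near their 3′ end, and levels of different genes can be compared without dividing by gene length. A well was taken as a resting cardiomyocyte when Myh6, Actc1, Tnnt2, Tnni3, Tnnc1, Myl2, Myl3 and Mb together made up at least 5% of its nuclear UMIs, when the endothelial genes Pecam1, Cdh5, Egfl7, Kdr, Emcn, Cav1, Ly6c1 and Fabp4 made up less than 0.6%, and when the injury genes Sprr1a and Nmrk2 had 0 UMIs. Nuclear UMIs leave out mitochondrial genes and spike-in RNA. The levels of these 18 genes chose the wells and are therefore given only as a description. Of the other sham cells, 382 were under the limit for cardiomyocyte genes, 11 were above it but had too many endothelial UMIs, and 6 were left out for Nmrk2, with at most 6 Nmrk2 UMIs in a well and 0 of Sprr1a. The limit of 5% did not fall in a gap: 51 sham cells lay between 4% and 5% and 70 of the chosen wells between 5% and 6%, the nearest outside at 4.988% and the nearest inside at 5.004%. The median of the chosen wells was 7.99% and the highest 19.6%.

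All cells came from the left ventricle of male C57BL/6 mice aged 8 weeks, from the region labelled as infarcted, and carried no transgene or deletion that the labels name. Single cells were sorted into multiwell plates, and libraries were made with SORT-seq. The sham hearts were collected at day 1 (4 plates with 76, 40, 58 and 24 of the chosen wells) or at day 14 after surgery (5 plates, replicates 1, 5, 6, 7 and 8, with 86, 38, 6, 19 and 48). Replicates 3 and 4 of day 14 had 0 such wells. Replicate 2 of day 14 was left out because all 19 chosen wells of replicate 7 matched the same wells of replicate 2. For comparison, the same rule was applied to hearts with ischemia-reperfusion (IR), a temporary occlusion of the left anterior descending artery, where it found 7 wells at day 1, 116 at day 3 and 323 at day 14. Plates were the replicates, and which mouse a plate came from was not stated, so p-values measure the spread between plates, which may share a mouse.

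Cardiomyocytes are the contracting cells of the heart. Their sarcomeres pull thin actin filaments along thick myosin filaments when calcium leaves the sarcoplasmic reticulum, and the calcium pump SERCA2 takes it up again. The adult ventricular cell runs almost entirely on mitochondrial respiration of fatty acids and glucose, and under strain it switches on genes of the fetal heart such as natriuretic peptides and the slow myosin heavy chain.

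The 395 wells held 1346709 nuclear UMIs from 13657 genes. A well had from 1004 to 19686 UMIs (median 2056) and from 281 to 4438 genes (median 778). Mitochondrial transcripts took a median of 81.2% of all gene UMIs, with a range of 7.35% to 95.3%, against a median of 41.96% in the other sham cells, which were also deeper (median 3069 nuclear UMIs). Tags of 6 bases limit how many molecules of a gene can be told apart in a well, and the highest count of a mitochondrial gene, 4095, was next to that limit, so mitochondrial shares of such wells are lower bounds. In 172 wells a mitochondrial gene was in the upper part of the range. Rn45s reached 3933 UMIs and was in the upper part of the range in 41 wells, so its levels and shares are bounded in the same way. The day 14 plate of replicate 5 stood apart: Rn45s, the precursor of ribosomal RNA, took 1.53% of nuclear UMIs in its median well, against 17.3% to 32.0% on the other plates, and its wells showed a median of 529.5 genes at equal depth against 402 to 474.

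**Figure D1:**
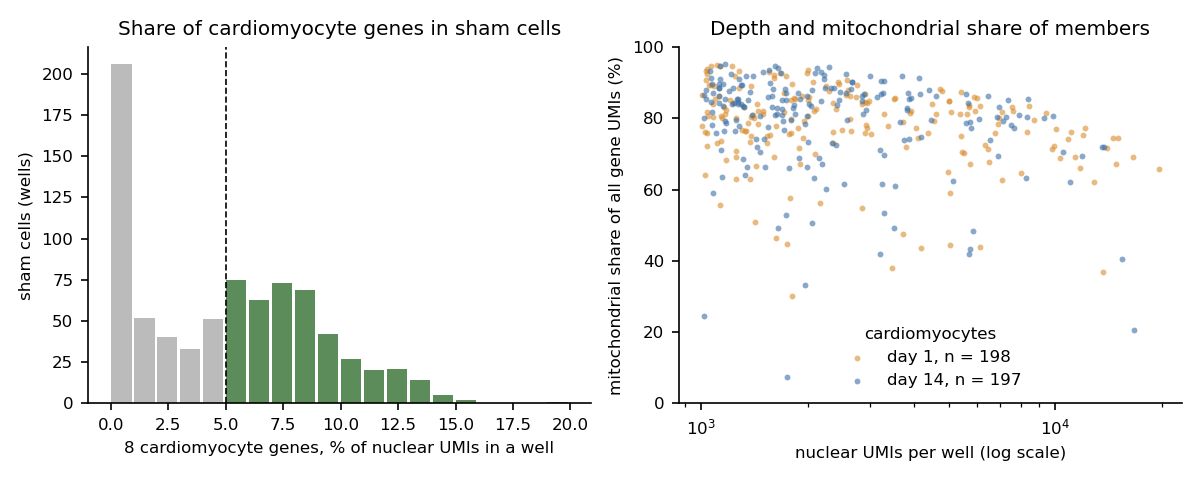
Left, the share of nuclear UMIs (%) taken by the 8 cardiomyocyte genes in sham cells, with the number of wells on the vertical axis; the dashed line marks the limit of 5% and green bars lie above it, including wells that another part of the rule left out. Right, the chosen wells by nuclear UMIs (log scale) and mitochondrial share (%), 1 point per well, coloured by day; wells run from 1004 to 19686 UMIs with a median mitochondrial share of 81.2%.

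Cardiomyocyte genes that the rule did not use were also high in the chosen wells. Each well was thinned to 1000 UMIs so that wells of unlike depth could be compared, and the share of wells with a UMI was set beside 118 endothelial wells of the sham plates, chosen for at least 1% endothelial and less than 2.5% cardiomyocyte UMIs (median depth 3209.5 UMIs against 2056). Ttn, the giant spring of the sarcomere, was seen in 99.2% of the chosen wells and in 66.1% of the endothelial wells. Atp2a2, which encodes SERCA2, was seen in all of them against 73.7%, and its inhibitor Pln in 88.1% against 37.3%. Mybpc3, a myosin-binding protein, was seen in 82.8% against 21.2%, Ryr2, the calcium release channel, in 73.2% against 12.7%, and Actn2 of the Z-disc in 63.5% against 9.32%. The most abundant cardiomyocyte transcripts were thus also seen in most endothelial wells, while Ryr2 and Actn2 were seen in few of them.

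Of the 6 atrial markers, Nppa held 1661 of 1724 UMIs and reached 6070 CPM on a plate, and it is described further on. Sln, the calcium pump inhibitor of atrial muscle, and Dkk3 had 0 UMIs in all 395 wells, Myl7, the atrial regulatory light chain, had 6 UMIs in 1 well, and Myl4 had 24 UMIs in 5 wells. Markers of other cell types were also present. Fibroblast markers were seen in 29.9% of wells at 1000 UMIs and reached 1220 CPM on a plate, with at most 93 UMIs in a well and Gsn as the most abundant (370 of 801 UMIs). Macrophage markers were seen in 54 wells with at most 4 UMIs, and Fcgr1 was at 0. Of 179 UMIs of neutrophil markers 177 belonged to Cxcr2, while S100a9 and Retnlg were at 0. Mural cell markers were seen in 132 wells, mostly Acta2 (178 of 275 UMIs), and lymphocyte markers in 11. The hemoglobin transcript Beta-s was seen in 91 wells with 622 UMIs in all, of which 372 lay in 3 wells on 2 plates, 326 of them in 1 well. Endothelial UMIs, capped by the rule, were at 0 in 204 wells.

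The level of each gene was measured per plate as CPM, the UMIs of the gene in the summed wells scaled to a total of 1000000 nuclear UMIs. Apart from Rn45s (mean 226000 CPM), the genes of contraction and calcium uptake led the transcriptome. The 20 genes with the highest mean, which include Rn45s and noncoding RNA such as Malat1, took 42.4% of all UMIs. Ttn had the highest mean of the protein-coding genes, with 25700, 13200, 18900 and 22300 CPM on the day 1 plates and 19100, 13400, 23300, 23900 and 32200 CPM on those of day 14, a mean of 21300 ± 6010 CPM (SD, n = 9 plates). Myh6, the fast myosin heavy chain of the adult mouse ventricle and a gene of the rule, followed with 20200 ± 5210, and Atp2a2 with 19800 ± 6420. The plate ranges of these 3 genes overlapped almost fully (13200 to 32200, 12300 to 27000 and 10500 to 28100), so their order is not resolved by 9 plates. Tnnt2, the troponin that anchors the calcium sensor to tropomyosin, stood at 14300 ± 3550, and Mb, the oxygen store myoglobin, at 13000 ± 3050.

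Taken by role, the 25 sarcomere genes outside the rule summed to between 35400 and 62300 CPM per plate (median 48900). After Ttn came the tropomyosin Tpm1, with a mean of 7140 ± 2420 CPM and 13100 CPM on the day 14 plate of replicate 5 against 4980 to 7600 on the others. The small heat shock protein Cryab, which guards desmin and titin, followed with 2630 ± 719, Mybpc3 with 2490 ± 438 and the intermediate filament Des with 1770 ± 493. The 18 genes of calcium handling summed to between 23000 and 41700 CPM (median 33800), most of it Atp2a2. Pln followed with 3040 ± 1050, the histidine-rich calcium-binding protein Hrc with 2320 ± 682, calsequestrin Casq2 with 2000 ± 371 and Ryr2 with 1860 ± 391. Casq2 and Ryr2, which store and release the same calcium pool, differed by less than their spread over plates. The sodium-calcium exchanger Slc8a1 reached 427 ± 101 CPM, and the L-type calcium channel Cacna1c 177 ± 67.2, and both levels come to less than 1 UMI in a well of median depth.

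Among the lists of protein-coding genes outside the rule, the respiratory chain had the highest median. Its 72 measured nuclear genes summed to between 52500 and 90200 CPM (median 59500), with Cox6a2, the heart and muscle form of a cytochrome oxidase subunit, at 7430 ± 1030 and the ATP synthase subunit Atp5b at 3470 ± 1270. Genes of the citric acid cycle and the creatine system summed to between 22000 and 44500 (median 27700). They were led by the ATP carrier Slc25a4 (8830 ± 1800) and the muscle creatine kinase Ckm (1830 ± 509), while the mitochondrial creatine kinase Ckmt2 stood at 1540 ± 400. Genes of fatty acid use summed to between 21100 and 31100 (median 28100). Lpl, the lipase that frees fatty acids from lipoproteins, accounted for 11800 ± 2650, the fatty acid binding protein Fabp3 for 2850 ± 603 and the transporter Cd36 for 1570 ± 489. Glycolysis and glycogen genes summed to less on every plate, between 8590 and 18700 (median 10700), with Aldoa at 1930 ± 448, Ldhb at 1470 ± 424 and the glycogen phosphorylase Pygm at 1220 ± 225. The lowest plate of the fatty acid list (21100) was above the highest plate of the glycolysis list (18700), although the lists hold 26 and 21 genes and were not matched in any other way. Lpl alone held 11800 ± 2650 of the fatty acid sum, and the lists were not compared without it.

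Membrane and junction genes summed to between 6390 and 9770 CPM (median 8940). The small membrane protein Fxyd1, phospholemman, stood at 1310 ± 277. Dsp, the desmosomal linker of the intercalated disc, reached 818 ± 321. Chaperones summed to between 5060 and 11100 (median 7250), led by the endoplasmic reticulum chaperone Hspa5 at 1550 ± 326 and Hsp90ab1 at 1190 ± 287. Redox enzymes summed to between 2970 and 6410 (median 3930), with Gpx4, which reduces lipid peroxides, at 630 ± 169 and the mitochondrial superoxide dismutase Sod2 at 542 ± 198. Secreted factors summed to between 1900 and 3300 (median 2640). Vegfa, the angiogenic growth factor, led them at 550 ± 344, followed by the peptide-processing enzyme Cpe at 435 ± 126 and Vegfb at 331 ± 120.

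Regulators were near the limit of detection. The 16 cardiac transcription factors together reached between 773 and 1430 CPM (median 847), about the level of Dsp alone. Their most abundant members were the metabolic coactivator Ppargc1a (137 ± 46.7), its partners Ppara (106 ± 88.6) and Esrra (103 ± 47.1), Gata4 (92.8 ± 93.2) and Nkx2-5 (65.4 ± 27.9), and each of them was seen in fewer than 10% of wells at 1000 UMIs. Zeb2, a repressor studied in injured cardiomyocytes and named after its values were seen, had 15 UMIs in 10 wells. Immediate early genes, which respond within minutes to tissue handling or stimulation, summed to between 105 and 1180 CPM (median 459), with Jund at 89.4 ± 46.4 and Jun at 67.3 ± 81.7. Jun had its highest value, 262 CPM, on replicate 5 of day 14 and 0 on replicates 6 and 7. Clock genes summed to between 214 and 771 per plate, led by Nr1d2 at 114 ± 55.9. At this depth, 9 plates cannot rank genes of this kind.

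**Figure D2:**
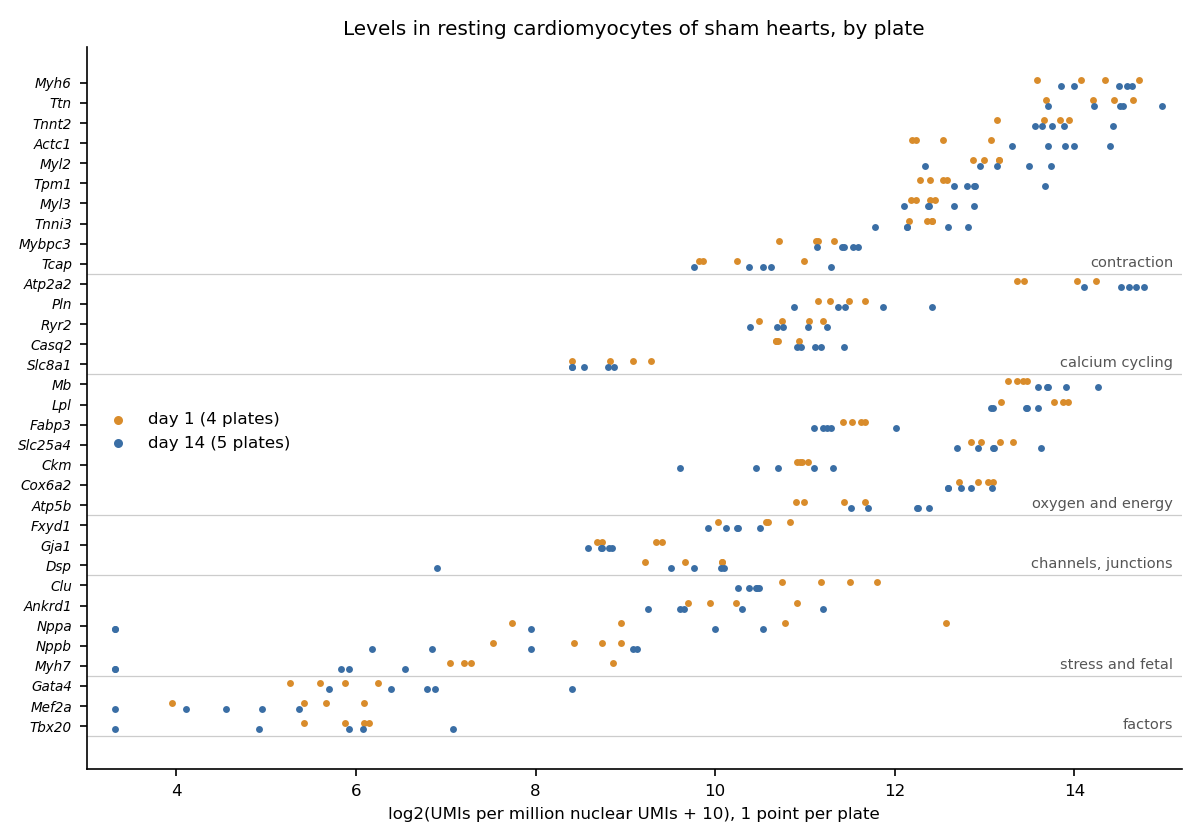
Levels of genes grouped by role, as log2(CPM + 10), with 1 point per plate, orange for day 1 (n = 4) and blue for day 14 (n = 5). Most sarcomere, calcium and energy genes lie at the right, while Nppa spreads from 0 to 6070 CPM and Myh7 lies at 122 to 454 CPM at day 1 and 0 to 83.6 CPM at day 14.

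Wells of the 2 sham days did not differ past the threshold in any of 6 measures (exact permutation test over 4 and 5 plates, two-sided, smallest p possible 0.0159). After adjustment over the 6 measures, no measure could pass alone in this design, so the values say nothing on whether the days were alike. Chosen wells made up 63.9%, 40.8%, 42.3% and 30.8% of cells on the day 1 plates and 67.2%, 58.5%, 60%, 51.4% and 60.8% on those of day 14, a mean of 44.5% ± 13.9 against 59.6% ± 5.67 (exact p = 0.0794, adjusted over the 6 measures 0.286). Nuclear UMIs per well were 2361 ± 411.5 against 1939 ± 283.7 (exact p = 0.111, adjusted 0.286). Genes seen at 1000 UMIs were 446.5 ± 17.01 against 449.8 ± 52.4 (exact p = 0.968), the mitochondrial share 79.7% ± 2.19 against 80.6% ± 3.39 (exact p = 0.746) and the Rn45s share 23.0% ± 1.27 against 20.4% ± 11.9 (exact p = 0.841). Nuclear UMIs per UMI of the added spike-in RNA were 4.50 ± 1.06 against 9.32 ± 6.65 (exact p = 0.143, adjusted 0.286), with the highest value, 20.6, on the plate with 6 wells.

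The sham days were compared gene by gene, and most of the genes called were higher at day 1. UMIs of the wells were summed per plate and the days were compared with edgeR's quasi-likelihood test over 1777 genes that passed its filter on low counts. At a Benjamini-Hochberg adjusted p of 0.05, 19 genes were called, 1.07% of those tested: 14 (0.788%) were lower and 5 (0.281%) higher at day 14. The count was not stable: it was 54 without day 1 replicate 1 and 3 without day 14 replicate 8, 2 in wells with at least 2000 UMIs and 3 in wells with cardiomyocyte genes at 10% or more. The plates of the days did not overlap for 65 genes, 3.66% of those tested, and 219 genes had an unadjusted p under 0.05. The median log2 fold change over all genes was -0.02.

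The call with the smallest p was Mt1. It encodes a small protein that binds zinc and copper and rises in many tissues with stress hormones and metals. It stood at 497, 949, 824 and 709 CPM on the day 1 plates and at 167, 316, 220, 83.6 and 215 CPM on those of day 14, with no overlap. Its log2 fold change was -2.001 (SE 0.28, adjusted p = 0.000296 by edgeR), and the call was kept when any 1 of the 9 plates was left out. It was lost in wells with cardiomyocyte genes at 10% or more, which left 4 plates, with a log2 fold change of -0.16 (adjusted p = 0.96 by edgeR). A fit with a block for replicate number over sham and IR plates lost it too (log2 fold change -1.76, adjusted p = 0.128 by edgeR). At full depth, Mt1 was seen in 53.9% to 75% of the wells of a day 1 plate and in 21.1% to 42.1% of those of a day 14 plate. On the day 14 plates of replicates 6 and 7 this came to 2 and 4 wells. Replicate 6 held 9082 UMIs in all, and its 220 CPM of Mt1 were 2 UMIs. Values of low genes on that plate, 0 CPM among them, rest on very few UMIs, also where plates did not overlap.

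Mt1 and its neighbour Mt2 lie on mouse chromosome 8 in RefSeq on GRCm38.p6. The span of Mt1, from 94178883 to 94180327, begins before the start that RefSeq's promoter window uses, which lies inside it. Their promoters are printed because both genes moved with the day; they run from 250 bases before to 50 bases after that start on the plus strand, at chr8:94178839-94179138 for Mt1 and chr8:94172368-94172667 for Mt2. Capitals mark matches to the core of the metal response element, searched as TGCACNC and TGCGCNC on both strands.
Mt1: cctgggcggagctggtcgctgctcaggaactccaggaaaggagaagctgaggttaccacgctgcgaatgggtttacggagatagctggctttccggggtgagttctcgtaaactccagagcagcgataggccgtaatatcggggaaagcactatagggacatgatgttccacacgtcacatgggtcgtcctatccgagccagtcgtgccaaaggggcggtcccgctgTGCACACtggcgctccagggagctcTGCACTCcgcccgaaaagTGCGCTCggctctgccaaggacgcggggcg
Mt2: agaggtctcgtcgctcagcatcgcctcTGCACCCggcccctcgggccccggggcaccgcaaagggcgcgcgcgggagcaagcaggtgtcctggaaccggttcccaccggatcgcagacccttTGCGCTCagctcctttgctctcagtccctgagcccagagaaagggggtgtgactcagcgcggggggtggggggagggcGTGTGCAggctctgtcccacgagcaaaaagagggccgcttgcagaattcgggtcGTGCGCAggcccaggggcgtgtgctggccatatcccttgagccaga
The window of Mt1 held 3 matches, all on the sense strand, and that of Mt2 held 4, of which 2 were on each strand. Of 32851 promoters of the same length, 25.7% held at least 1 match and 1.97% at least 3. A match is a run of letters and not a measured binding site.

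Mt2 itself was too low for the filter and was tested only without it. It stood at 20.4, 132, 155 and 165 CPM on the day 1 plates and at 7.77, 13.5, 0, 0 and 14.4 CPM on those of day 14, 79 UMIs against 6. Its log2 fold change without the filter was -3.50 (SE 0.59, adjusted p = 1.17e-05 by edgeR over 13657 genes, of which 27, or 0.198%, were called). Lcn2, an iron-sequestering lipocalin of the acute phase, was called with the smallest p of that fit. It stood at 40.7, 280, 248 and 165 CPM at day 1, where 9.21%, 37.5%, 34.5% and 29.2% of wells held it, and at 0, 0, 0, 0 and 7.18 CPM at day 14. That was 131 UMIs against 1, a ratio of 106 with a 95% exact interval of 18.7 to 4220 that covers counting error only. Its adjusted p without the filter was 6.76e-14 (edgeR). Neutrophils also carry Lcn2. Of their 5 markers S100a9 and Retnlg had 0 UMIs in these wells, while Cxcr2, which holds 177 of the 179 UMIs of the list, stood at 57, 428, 126 and 107 CPM at day 1 and 70, 141, 110, 83.6 and 21.5 CPM at day 14 (log2 fold change -1.33, SE 0.50, adjusted p = 0.225 by edgeR with the filter). The part of neutrophil RNA in the Lcn2 values was not tested. The same fit without the filter called Vwf, a gene of endothelial cells (78 UMIs against 7, in 7 wells), and Mgp, a matrix protein gene (84 UMIs against 14), lower at day 14 as well, and the part of other cells in these calls was not tested. Serpina3n, a protease inhibitor of the acute phase, had 33 UMIs at day 1 and 2 at day 14 (log2 fold change -3.50, SE 0.85, adjusted p = 0.0246 without the filter by edgeR). Mt2, Serpina3n, Vwf and Mgp were named after their values were seen.

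Lrg1, a leucine-rich glycoprotein that acute phase cytokines induce, showed the largest log2 fold change of the filtered fit. It stood at 57.0, 510, 478 and 554 CPM on the day 1 plates and at 23.3, 94.2, 0, 41.8 and 21.5 CPM on those of day 14, so that the day 1 plate of replicate 1 overlapped with day 14. The log2 fold change was -3.34 (SE 0.53, adjusted p = 0.00111 by edgeR), and the call was kept in all 8 fits without 1 plate in which it was tested, but lost in wells with at least 2000 UMIs (log2 fold change -3.26, adjusted p = 0.0704 by edgeR). The call was also lost with the replicate block (log2 fold change -2.99, adjusted p = 0.0572 by edgeR). The same day 1 plate was also the lowest of its group for Mt1, Mt2 and Lcn2. Summed over the 17 genes of the acute phase and metallothionein list, which does not hold Lrg1, day 1 plates held 1540 ± 376 CPM (SD, n = 4) and day 14 plates 539 ± 178 (n = 5). In the filtered fit 5 of the 17 were tested, 1 was lower (Mt1) and 0 were higher, beside 0.788% and 0.281% of all genes, with a median log2 fold change of -0.57. The cytokine receptor subunit Il6st (121 ± 47.6 against 67.6 ± 43.4 CPM) and the transcription factor Stat3 (82.1 ± 17.5 against 98 ± 70.3 CPM) were not called (log2 fold changes -0.64 and -0.30, SE 0.38 and 0.40).

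Of the fetal and strain genes, 9 of 21 were tested, 2 were lower at day 14 and 0 were higher, beside 0.788% lower and 0.281% higher of all genes tested, with a median log2 fold change of -0.58. Myh7, the slow myosin heavy chain of the fetal mouse ventricle, lies at chr14:54970684-54994626. It stood at 122, 137, 454 and 146 CPM at day 1 and at 50.5, 47.1, 0, 83.6 and 0 CPM at day 14, with no overlap (log2 fold change -2.55, SE 0.52, adjusted p = 0.0122 by edgeR). Of the 97 Myh7 UMIs on the highest plate, 51 came from 1 well. The call was lost without day 1 replicate 3, day 14 replicate 6 or day 14 replicate 8. It was also lost with at least 10 wells per plate (adjusted p = 0.0614 by edgeR). The same held without the tables whose row names end in a space (adjusted p = 0.0707 by edgeR). With the replicate block the log2 fold change was -1.13 (adjusted p = 0.999 by edgeR). Clu, a secreted chaperone that binds damaged proteins, stood at 1710, 2310, 2890 and 3550 CPM at day 1 and kept to a narrow band of 1430, 1390, 1320, 1210 and 1410 CPM at day 14 (log2 fold change -1.07, SE 0.26, adjusted p = 0.0349 by edgeR), but the call was kept in only 2 of 9 fits without 1 plate. Nppa, Nppb, Acta1 and Ankrd1 were not called (log2 fold changes -1.84, -0.67, 0.90 and -0.17, SE 0.70, 0.40, 0.46 and 0.33). Without the filter on low counts, Nppa was called lower at day 14 (log2 fold change -1.77, adjusted p = 0.00106 by edgeR), in 2 of its 24 alternatives. That fit also called Myl4 of this list higher at day 14 (log2 fold change 3.92, adjusted p = 0.0313 by edgeR). Myl4 had 1 UMI at day 1 and 23 at day 14.

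Of the noncoding RNA list 5 genes were tested and 1, Kcnq1ot1, was lower at day 14, beside 0.788% lower of all genes tested. The fit without the filter also called Lars2 (log2 fold change -1.55, adjusted p = 0.0304) and Neat1 (-1.46, adjusted p = 0.0403, both by edgeR) lower, and each was called in 2 of its 24 and 23 alternatives. Lars2 is a protein-coding gene, although the list holds it. Kcnq1ot1, the antisense RNA of the imprinted Kcnq1 locus, stood at 4290, 18700, 10600 and 5750 CPM at day 1 and at 4290, 5520, 3190, 1300 and 1290 CPM at day 14 (log2 fold change -1.85, SE 0.40, adjusted p = 0.0181 by edgeR), so that the groups overlapped. Vmn2r55, annotated as a vomeronasal receptor gene, A130077B15Rik, Cmah, Gm10845, Gm10785, Gm17821 and Grk4 were lower as well, from Cmah with a log2 fold change of -2.48 to Gm10845 with -1.39. Each of these calls was lost without 1 or more of the plates, Kcnq1ot1 without any of 5 plates. In single wells some of these transcripts varied together. Over 389 wells on 8 plates, thinned to 1000 UMIs, the Spearman correlation of Kcnq1ot1 within a plate had a median of 0.67 with Gm17821, 0.62 with Grk4, 0.60 with A630089N07Rik, 0.49 with Vmn2r55 and 0.44 with A130077B15Rik. A630089N07Rik was not called with the filter, but was called lower without it (log2 fold change -1.56, adjusted p = 0.018 by edgeR) and in 10 of 24 alternatives. The correlation of Kcnq1ot1 was lower with Gm10785 (0.37, lowest plate -0.25), Gm10845 (0.28) and Cmah (0.28 over 6 plates). With Mt1 it was -0.09 and with Lrg1 -0.02. Kcnq1ot1 was also abundant outside cardiomyocytes, being seen in 81.3% of the chosen and 98.3% of the endothelial wells at equal depth. Kcnq1ot1 and Kcnq1 overlap on opposite strands, and whether reads were counted by strand was not stated.

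Cd63, a tetraspanin of endosomes and lysosomes, fell from 342, 324, 328 and 466 to 183, 182, 110, 105 and 201 CPM (log2 fold change -1.19, SE 0.29, adjusted p = 0.0349 by edgeR), and the taurine transporter Slc6a6 from 204, 296, 145 and 223 to 85.5, 101, 0, 62.7 and 57.4 CPM (log2 fold change -1.61, SE 0.35, adjusted p = 0.0181 by edgeR). Slc6a6 was seen in 57.6% of endothelial and 12.7% of cardiomyocyte wells. The genes that were higher at day 14 were the lectin Cd209c (61.1, 76.8, 37.5 and 9.71 against 155, 256, 220, 146 and 244 CPM, log2 fold change 1.90, SE 0.38, adjusted p = 0.0122 by edgeR), the iron-sulfur assembly gene Isca1 (log2 fold change 1.36), Polr2m (1.30) and the tetraspanin Tspan9 (1.56). Actc1 made the fifth. It is a gene of the rule, so its values are a description: 8630, 4810, 5940 and 4690 CPM at day 1 against 10100, 21600, 15200, 16400 and 13400 CPM at day 14. Plates of the days overlapped for Polr2m and Tspan9. The third day 14 value of each gene comes from replicate 6, a plate of 9082 UMIs where 220 CPM were 2 UMIs for Mt1. In the 9 fits without 1 plate, Cd63, Isca1 and Tspan9 kept their call in 2, Polr2m in 3, Slc6a6 in 6 and Cd209c in 7.

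In the lists of contraction and energy genes, which do not hold Myh7 or the rule gene Actc1, edgeR called 0 genes between the days, among 22 tested genes of the sarcomere, 15 of calcium handling, 72 of the respiratory chain, 24 of fatty acid use, 27 of the citric acid cycle and creatine system, 18 of glycolysis and 13 chaperones. Their median log2 fold changes were 0.22, 0.16, -0.08, -0.06, 0.29, 0.19 and 0.10, against -0.02 for all genes. At an unadjusted p under 0.05 there were 0, 0, 11, 2, 3, 0 and 1 such genes, beside 219 of all 1777 genes, and DESeq2 also called 0 in each list. Over all genes 1.07% were called. A missed threshold does not show equal levels, since single genes carried errors such as those of Pln (log2 fold change 0.16, SE 0.27) and Ryr2 (-0.21, SE 0.26).

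**Figure D3:**
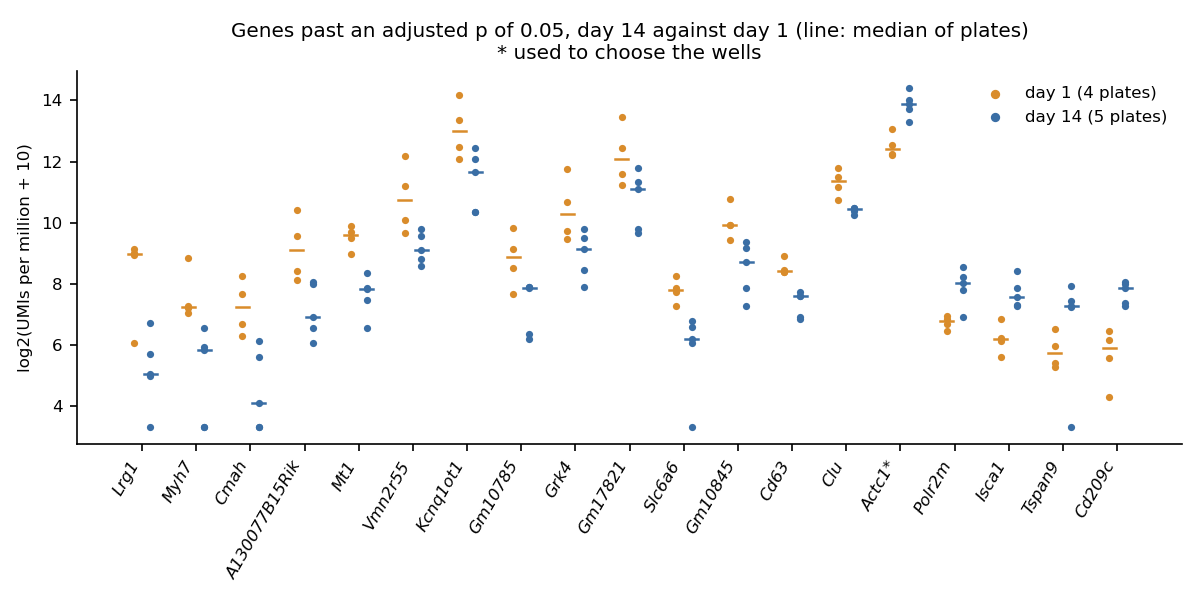
The 19 genes past an adjusted p of 0.05 between the sham days, ordered from the most lowered at day 14 (left) to the most raised (right), as log2(CPM + 10), 1 point per plate and a line at the median of the plates. Mt1 shows 2 separate groups, 497 to 949 CPM at day 1 and 83.6 to 316 CPM at day 14, while Lrg1 and Kcnq1ot1 overlap in 1 or more plates; Actc1, marked with an asterisk, was used to choose the wells.

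Variation between cells was measured as overdispersion, the variance of the thinned counts minus their mean, divided by the squared mean, within each plate. It is 0 when only counting error is present. Over 389 wells on 8 plates, the 212 genes with a mean of at least 0.5 UMIs per 1000 had a median of 0.36 and quartiles of 0.25 and 0.59. Without thinning these were 0.21, 0.17 and 0.30. The spike-in RNAs gave a median of -0.0038 and at most 0.33 over 16 species, and 121 of the 212 genes lay above the highest of them. Plate medians ran from 0.26 to 0.44.

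At the low end, Acaa2, the last enzyme of mitochondrial fatty acid oxidation, had an overdispersion of 0.028 and was seen in 51.4% of wells, as many as counting error alone would give (51.7%, the Poisson expectation at its plate means). Aldoa (0.050) and Pkm (0.082) of glycolysis, Cox6c (0.088), Ndufa13 (0.11), Ndufa5 (0.13) and Atp5g3 (0.14) of the respiratory chain, Pfkm (0.14) and Pygm (0.14) of sugar use and Ldb3 (0.12) of the Z-disc followed. The order at this end depended on the processing. With Rn45s left out, Pkm had 0.54, Acaa2 0.26 and Aldoa 0.17, and without thinning Acaa2 had 0.13 and the lowest gene was Pygm with 0.063. Of sarcomere genes outside the rule, Xirp2 had 1.08, Myoz2 1.02, Myom2 0.94, Ttn 0.68 and Tpm1 0.17, and the calcium pump gene Atp2a2 had 0.25. Without thinning, Xirp2 had 1.315, Myoz2 0.54, Myom2 0.29, Ttn 0.51 and Atp2a2 0.18. Genes of the rule are given as a description, since the limit on their sum bounds their spread: Myh6 had 0.49, Tnnt2 0.27, Myl2 and Mb 0.21, Myl3 0.19 and Tnni3 and Actc1 0.17. Ttn and Myh6 varied together (median Spearman correlation within plates 0.30, highest 0.73, lowest 0.064).

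In all, 22 genes exceeded an overdispersion of 1. Beta-s (51.9) rested on 1 well with 259 of its 1000 UMIs. Nppa (21.9), D830015G02Rik (5.44), Neat1 (5.19) and Malat1 (4.82) were each concentrated in a minority of cells. Without thinning, Beta-s had 18.5, Nppa 7.17, D830015G02Rik 4.12, Neat1 2.36 and Malat1 3.43. In the 78 wells with cardiomyocyte genes at 10% or more, on 4 plates, Malat1 had 0.83, D830015G02Rik 1.24 and Beta-s 0.67, while Neat1 had 3.64 and Nppa 24.4. Kcnq1ot1 (2.16), A630089N07Rik (2.10), Gm17821 (1.99), Grk4 (1.86) and Vmn2r55 (1.54) were the covarying transcripts described above. Ankrd1, the stretch-responsive ankyrin repeat protein of the sarcomere, had 1.59 and was seen in 47.6% of wells where 64.3% would be expected from its mean. The RNA-binding protein Ybx1 (1.68), the kinase Dmpk (1.39) and Aes (1.30) were also among the 15 highest. Without thinning these 3 had 1.10, 1.16 and 0.25, and Dmpk ran from -0.88 to 4.96 over plates, so the order at this end depended on the processing too.

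**Figure D4:**
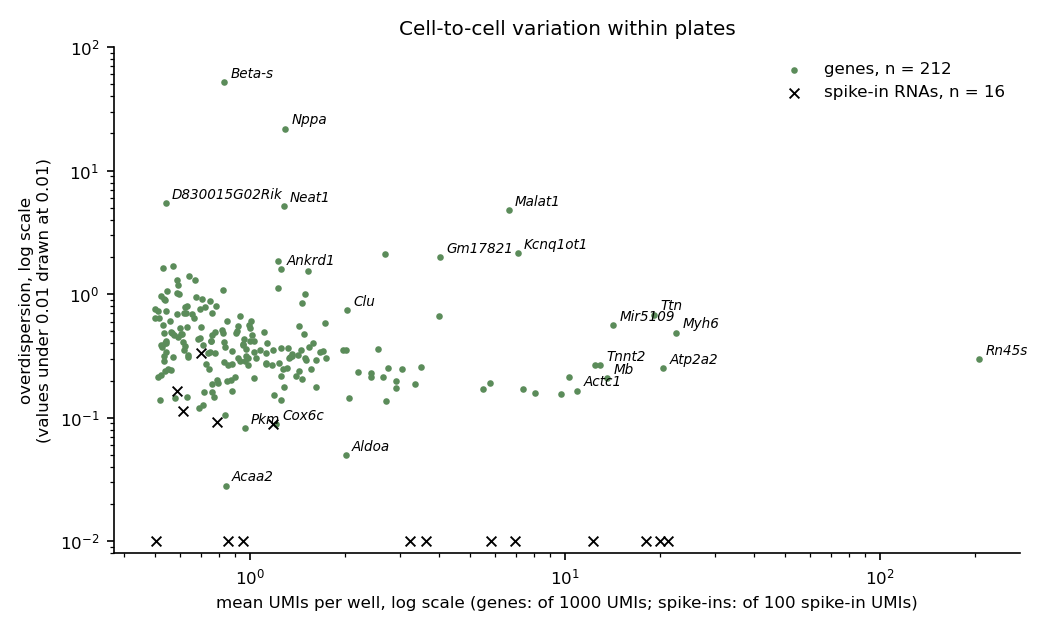
Overdispersion of each gene (green, n = 212) and spike-in RNA (crosses, n = 16) against its mean count per well, both on log scales, with values under 0.01 drawn at 0.01. Spike-in RNAs stay at or under 0.33, most sarcomere and energy genes lie between 0.1 and 1, and Beta-s, Nppa, D830015G02Rik, Neat1 and Malat1 stand above 4.

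Malat1, Neat1 and D830015G02Rik separated a class of wells. Malat1 and Neat1 are long noncoding RNAs retained in the nucleus, in speckles and paraspeckles, and lie next to each other on chromosome 19 (5795690 to 5802672 and 5824708 to 5845480). D830015G02Rik is now named Mhrt, a nuclear RNA of cardiomyocytes that lies at chr14:54968787-54974349, overlapping the 3′ end of Myh7 on the other strand, so that its reads and those of Myh7 cannot be told apart where counting ignores strand. At 1000 UMIs, 200 wells (50.6%) had 0 Malat1 UMIs, 138 (34.9%) had 1 to 4 and 57 (14.4%) had 5 or more. Neat1 was seen in 6.00%, 7.25% and 84.2% of these 3 sets, and D830015G02Rik in 7.00%, 11.6% and 64.9%. In means per 1000 UMIs, Neat1 had 0.065, 0.101 and 6.16, D830015G02Rik 0.085, 0.145 and 2.98, and Kcnq1ot1 3.92, 7.18 and 16.5.

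Other transcripts of wells with 5 or more Malat1 UMIs are given as a description, and were chosen after their values were seen. Son, a scaffold of nuclear speckles, was seen in 16.0%, 15.9% and 70.2% of the 3 sets, the RNA helicase Ddx5 in 9.00%, 10.9% and 61.4%, and Vegfa in 15.5% of the wells with 0 and 64.9% of those with 5 or more. Atp2a2 had means of 23.3, 20.6 and 11.5 UMIs per 1000 and Ttn 19.8, 18.2 and 22.6. Of the rule genes, Tnnt2 had 11.1, 9.75 and 22.8, Myh6 25.6, 24.3 and 14.6, and Mb 14.8, 13.4 and 8.89. The median share of the 8 rule genes was 8.44%, 7.93% and 6.89%, so the last set lay nearer the limit of 5%. Uqcrfs1, a subunit of respiratory complex III, was seen in 63.5%, 55.8% and 28.1%. The wells were deeper too, with a median of 5584 nuclear UMIs against 2063 and 1702, and had a lower mitochondrial share (74.2% against 81.8% and 83.0%). Among wells under 2000 UMIs, where the median depths were 1376, 1304 and 1424, Neat1 was seen in 4.17%, 5.95% and 66.7% of 96, 84 and 12 wells, whose median mitochondrial shares were 82.2%, 83.5% and 69.9%. The part of depth and mitochondrial share in the contrast was not tested further.

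Such wells occurred on every plate but in unequal number: 5.26%, 22.5%, 12.1% and 50% of the wells of the day 1 plates and 8.14%, 2.63%, 16.7%, 10.5% and 29.2% of those of day 14 (replicates 1, 5, 6, 7 and 8). The summed Malat1 level ran from 1920 to 32600 CPM, with the highest value on day 14 replicate 6, where 1 of 6 wells had 5 or more UMIs, and was not called between the days (log2 fold change -0.06, SE 0.51, adjusted p = 0.986 by edgeR). Within plates, Malat1 correlated with Neat1 at a median of 0.53 (0.11 to 0.80) and with D830015G02Rik at 0.50 (0.11 to 0.69) over the 8 plates.

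Nppa, which encodes atrial natriuretic peptide, was not seen in most wells and was high in a few. At 1000 UMIs it was seen in 52 of the 395 wells, and at full depth in 89, and in 13.4% of the wells on the 8 plates where 56.5% would be expected from its mean. The 12 wells with 5 or more UMIs (3.04%) lay on 6 plates and held 85.8% of the 452 Nppa UMIs, with 75, 70 and 58 in the highest wells. At full depth, Myl4 had 1 UMI in these 12 wells, while Sln and Myl7, which have 0 and 6 UMIs in all wells, cannot tell the wells apart. Some genes of the fetal and strain list, chosen after their values were seen, were more frequent in them than in the 343 wells without Nppa at 1000 UMIs: Nppb, its brain-type relative, in 41.7% against 14.3%, Ankrd1 in 83.3% against 47.5%, the skeletal actin Acta1 in 41.7% against 11.1% and Myh7 in 41.7% against 7.87%. Others of the list were not, such as Xirp1 with 8.33% against 10.2% and Myl4 with 0% against 1.17%. With 12 wells, 41.7% stands for 5 wells. Fibroblast transcripts were also seen more often, Gsn in 33.3% against 15.7% and Dcn in 16.7% against 9.33%, and their part in the contrast was not tested. The median mitochondrial share was 75% against 81.3%.

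**Figure D5:**
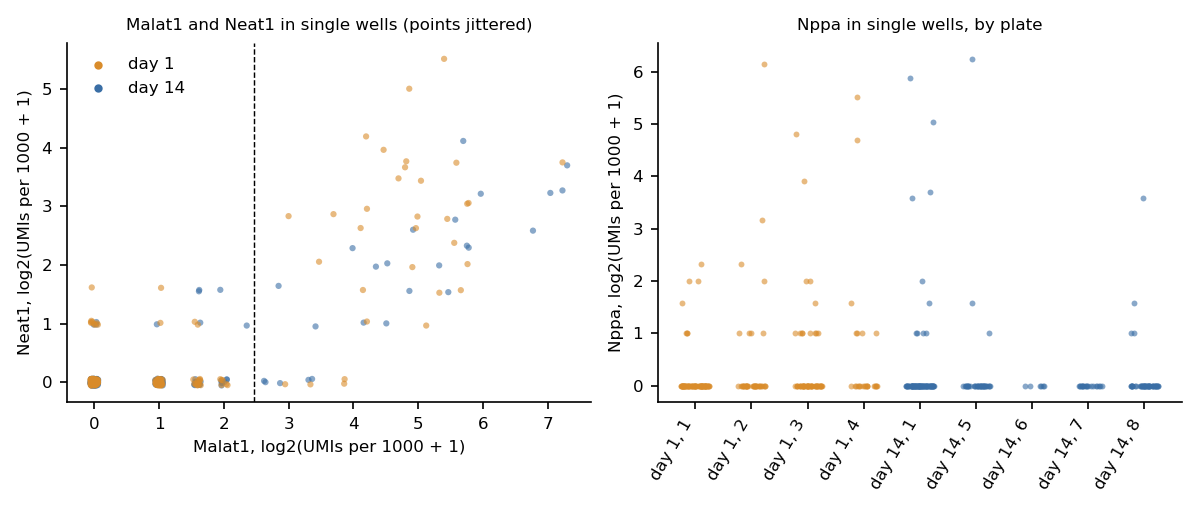
Left, Malat1 against Neat1 in each of the 395 wells as log2(UMIs per 1000 + 1), with a small random shift so that points do not cover each other; Neat1 was seen in 84.2% of the wells right of the dashed line at 5 Malat1 UMIs and in 6.00% of wells with 0. Right, Nppa in each well by plate on the same scale, where the 12 wells with 5 or more UMIs lie on 6 of 9 plates.

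Correlations between groups of genes differed from plate to plate. The Spearman correlation within plates, over 389 wells thinned to the same depth, had a median of 0.26 between fatty acid use and the respiratory chain (-0.18 to 0.63 over plates) and -0.01 between sarcomere and respiratory chain (-0.14 to 0.20). It was 0.11 between immediate early genes and chaperones (-0.051 to 0.35) and -0.0025 between fetal and sarcomere genes (-0.32 to 0.59). Thinned counts of 1 well share a fixed total, which pushes correlations down. The mitochondrial share fell with depth (median -0.25) and rose with the Rn45s share (0.27), and the limit on UMIs bounds both shares in the wells that reach it. Depth was the count of nuclear UMIs, which also enters the divisor of the mitochondrial share, so a fall with depth is partly built in.

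Cardiomyocytes picked by the same rule from reperfused hearts were compared with sham cells at day 14 and at day 3, with unlike numbers of plates, and the counts of the 2 comparisons were not tested against each other. With cardiomyocyte genes at 10% or more they were 1 and 0. The rule removes wells with Sprr1a or Nmrk2 from both, so cells with these injury transcripts are absent by construction, and both comparisons share sham plates. At IR day 14, 8 of 2939 genes (0.272%) were called against sham day 14, 8 higher (0.272%) and 0 lower (0.0%), with 179 genes at an unadjusted p under 0.05 and 1 gene called by DESeq2. Plates of the groups did not overlap for 111 genes (3.78%). Myh7 led them with 398, 749 and 1000 CPM on the 3 IR plates against 0 to 83.6 CPM at sham day 14 (log2 fold change 4.204, SE 0.47, adjusted p = 1.13e-07 by edgeR), and it was called in all 16 fits without 1 plate. On the same scale, the sham day 1 plates lay at 122 to 454 CPM. The collagens Col1a2 and Col3a1 followed (log2 fold changes 3.77 and 2.81, SE 0.70 and 0.59), together with Col1a1, Pabpc4, Cmah, A130077B15Rik and Vmn2r55. In the 16 fits without 1 plate, Col1a2 was called in 14, Col3a1 in 12 and A130077B15Rik in 10. Pabpc4 and Vmn2r55 were called in 9, Cmah in 8 and Col1a1 in 6. The count of genes called ran from 1 to 13 in these fits. Summed fibroblast markers were 337 to 645 CPM at sham day 14 and 381 to 2370 CPM at IR day 14, and their part in the collagen values was not tested.

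At IR day 3, 75 genes (2.55%) were called against both sham days, 54 higher (1.84%) and 21 lower (0.715%), and plates of the groups did not overlap for 42 genes (1.43%). The highest log2 fold changes without overlap of plates belonged to Lgals3 (6.90, SE 0.73), Spp1 (6.78, SE 0.55) and Ctss (5.67, SE 0.50), which macrophages express strongly, and to the matrix genes Col3a1 (4.98), Col1a1 (4.92) and Fn1 (4.91). Macrophage markers summed to 216 to 2580 CPM there and to at most 110 CPM on a sham plate, and fibroblast markers to 756 to 5070 CPM against 258 to 1220. The part of these other cells in the calls was not tested. Sham cells held more Pcp4l1 (82.3 to 289 against 13.3 to 72.0 CPM, log2 fold change -2.0, SE 0.39) and more carnitine acetyltransferase Crat (220 to 376 against 107 to 199 CPM, log2 fold change -1.03, SE 0.28). In the 16 fits without 1 plate, Pcp4l1 kept its call in 16 and Crat in 10, losing it without any of the 4 IR plates or day 14 sham replicates 1 or 7. Among genes of the fetal and strain list, 6 of 13 tested were higher at IR day 3 and 0 were lower, with a median log2 fold change of 1.09 against -0.03 for all genes. Ankrd1 stood at 602 to 2340 CPM on sham plates and 3060 to 5050 CPM at IR day 3 (log2 fold change 1.42, SE 0.26, adjusted p = 0.000284 by edgeR). Nppa was seen at 1000 UMIs in 0% to 29.2% of the wells of a sham plate, in 50% to 60% at IR day 3 and in 24.3% to 64% at IR day 14. Its summed level was not called in either comparison (log2 fold changes 1.09, SE 0.55, and 2.19, SE 0.68, at IR days 3 and 14).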

How the data were processed

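Per the labels, the authors made SORT-seq libraries from sorted cells, mapped reads to GRCm38/mm10 with BWA (version not given in the sources used here) and deposited 1 table of UMI counts per 384-well plate. The deposited counts were not corrected for molecules that share a 6-base UMI. Row names that end in a space, in 3 tables of day 14 sham, were trimmed. Each plate was 1 replicate, and plates may share a mouse.

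Wells with at least 1000 nuclear UMIs were cells. Doublets were not called. UMIs of the chosen wells were summed per plate with at least 5 such wells (9082 to 590798 UMIs) and tested with edgeR 4.0.16 (R 4.3.3; filterByExpr, TMM, quasi-likelihood F test, Benjamini-Hochberg, threshold 0.05), with both sham groups in one fit and sham and IR plates in another. CPM values precede TMM scaling. SDs are over plates. Single measures used exact permutation tests (scipy 1.17.1), adjusted over 6. Wells were thinned to 1000 UMIs for shares of wells and overdispersion. Scripts were tested on simulated data. Alternatives used DESeq2 1.42.0, other scaling, filters, rule limits, thinning, UMI collision correction, a replicate block and omission of each plate. Coordinates and promoters are RefSeq's on GRCm38.p6, matched by symbol or older symbol for 509 of 511 genes. The study compared cells; plates were compared here because cells of a plate are not replicates.

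The rule for the wells and the gene lists were chosen with earlier results of these data known. Named genes were the rule genes, the 20 highest, up to 5 highest of each list, called genes without overlap of plates (12 per direction between days, 6 against IR), called list members, and the 15 most and 10 least variable genes. Other named genes were chosen after their values were seen. A few genes that the rule names are not reported here.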

Additional observations from a re-analysis of the deposited data

Results flagged for a closer look

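In 86 groups of plates (4 of day 1 or 5 of day 14 sham), 7 values lay far from the rest of their group, measured as the gap to the nearest plate over the whole range. Chance flags about 1 in 20 groups. Their causes were not tested.

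On day 14 replicate 5, Rn45s stood at 32500 CPM against 244000 to 295000 on the other day 14 plates, and Tpm1 at 13100 against 6460 to 7600. On day 14 replicate 6, which has 6 of the chosen wells, Malat1 stood at 32600 CPM against 1920 to 10600. On day 14 replicate 1, Mir5109 stood at 28400 CPM against 3630 to 8750. On day 1 replicate 1, Lrg1 stood at 57 CPM against 478 to 554. On day 1 replicate 3, Myh7 stood at 454 CPM against 122 to 146, of which 51 of 97 UMIs came from 1 well. On day 1 replicate 4, Cd63 stood at 466 CPM against 324 to 342.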

How the results depend on the processing

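Between the sham days (19 genes called), the count was 9 with at least 10 wells per plate, 2 with at least 2000 UMIs per well, 3 with cardiomyocyte genes at 10% or more (4 plates), 33 in a fit with the IR plates, 12 with thinned wells, 10 without the tables whose row names end in a space, and 3 to 54 with 1 plate left out (54 without day 1 replicate 1, 3 without day 14 replicate 8). RLE scaling gave 17, DESeq2 22 and no filter 27. For IR day 14 against sham day 14 (8 called), RLE scaling gave 3, DESeq2 1, no filter 27, and 1 each came from at least 10 wells, 2000 UMIs, the 10% limit and leaving out the tables with a space, with 1 to 13 without 1 plate. For IR day 3 against sham (75 called), no filter gave 165, at least 10 wells 44, 2000 UMIs 18, the 10% limit 0 (152 genes at an unadjusted p under 0.05), wells with Sprr1a or Nmrk2 kept 137, and 27 to 97 came without 1 plate. Thinning and leaving out those tables were chosen after seeing the data. Correlations between plates of different groups with equal replicate numbers ran from -0.129 to 0.0832, which cannot settle whether such plates share a batch. A replicate block left 1, 7 and 23 calls in the 3 comparisons.

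Signs turned for these values. At the 10% limit, the IR day 3 log2 fold change of Beta-s was 1.30, of Cd63 -0.042 and of Gm10785 0.51. Between the days, genes per well differed by -2.625 with at least 2000 UMIs, -17.17 without the tables with a space and -16.62 to 15.25 without 1 plate. The mitochondrial share differed by -0.278 to 2.11 points without 1 plate, the Rn45s share by -5.42 to 2.20 without 1 plate and 1.47 without the tables with a space, and nuclear UMIs per spike-in UMI by -0.04235 with at least 2000 UMIs. The measures were not tested at the 10% limit, which leaves too few plates. The median overdispersion of 0.36 was 0.21 in wells that were not thinned, 0.31 at the 10% limit, 0.36 without Rn45s and 0.33 to 0.38 without 1 plate. The cause of these differences was not tested. Plate sums of 9082 to 257314 UMIs limit every statement on transcription factors, clock and immediate early genes.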

Other observations

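Proteolysis and hormone response genes were not described above. Genes of muscle ubiquitin ligases and atrophy summed to between 661 and 3240 CPM per sham plate (median 2130), and 0 of 9 tested were called between the days by edgeR or DESeq2, with 1 at an unadjusted p under 0.05 by edgeR, beside 1.07% called and 219 of 1777 under that p over all genes. Among them, the autophagy protein Map1lc3a stood at 350 ± 176 CPM (SD, n = 9 plates). Trim54, a ring finger protein of the sarcomere, stood at 225 ± 79.2 and was seen in 18.2% of the wells at 1000 UMIs against 1.69% of endothelial wells. Genes that respond to glucocorticoids summed to 839 ± 375 CPM at day 1 and 538 ± 198 at day 14, of which Lcn2, described above, made up 183 and 1.44 CPM. Of this list 2 genes were tested, and 0 were called by edgeR or DESeq2 or had an unadjusted p under 0.05. Among them Pdk4, the kinase that turns pyruvate away from oxidation, ranged from 57.0 to 656 CPM at day 1 and from 155 to 495 at day 14, so the groups overlapped, and Klf9 held 102 ± 36 CPM over all plates.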
